A study of Mus musculus with 3 samples.

Results

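Numbered Zfp genes are the mouse genes whose symbol is Zfp followed by digits and, in some cases, 1 letter. Most encode proteins with tandem C2H2 zinc fingers, small folds that each hold a zinc ion and usually touch a few bases of DNA. The genes were chosen by that spelling and by a minimum of 500 read counts summed over the 3 libraries of the study. The rule took 258 genes, out of 391 numbered Zfp rows and 25638 genes in the table. In all, 9612 genes of the table reached 500 summed counts.

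The libraries were RNA-seq of CD8+ T cells from the spleens of untreated wild-type (WT) mice, with 1 library each of effector memory, central memory and naive cells. Effector memory cells patrol tissues and act at once when they meet antigen again, central memory cells recirculate through lymphoid organs, and naive cells have not yet met antigen. The age and number of mice behind a library, any immunisation and the gates of the sort are not stated in the labels. Each group has 1 library, so no difference has a replicate check and no p-value is given.

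The zinc finger family is among the largest in the mouse genome, and many of its members carry a KRAB box, a short N-terminal segment that recruits the corepressor Trim28. Trim28 in turn brings in the H3K9 methyltransferase Setdb1 and heterochromatin protein 1, and KRAB zinc finger proteins are best known for silencing transposable elements in this way. Members without a KRAB box include general transcription factors, chromatin adaptors and proteins that bind RNA. KRAB genes sit in tandem arrays that grew by local duplication.

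Counts were 33087462 in the effector memory library, 35846315 in central memory and 26876909 in naive. Levels are counts per 1000000 of a library scaled by trimmed mean of M values (CPM). A gene was called higher or lower where the ratio of CPM between 2 libraries was at least 2, the higher level was at least 5 CPM and the 95% exact counting interval of the ratio excluded 1. This is a rule of size, and its intervals cover counting error only. Cd8a had 408 CPM in effector memory, 1063 in central memory and 1868 in naive, and Cd3e had 335, 418 and 395 CPM in the same order. Cd4 stayed at or under 2.12 CPM. The 4 CD4 T cell markers summed to 94.3 CPM in effector memory, 39.7 in central memory and 7.73 in naive. In both memory libraries the sum was mostly Zbtb7b, at 93.6 and 37.4 CPM, against 1.33 in naive. Foxp3 ran the other way, at 0.156, 1.70 and 3.95 CPM, and was the largest part of the naive sum. The 10 mitosis markers summed to 4836 CPM in effector memory, 798 in central memory and 16.9 in naive, and all 10 were called higher in each comparison. The 5 NK cell markers summed to 1097, 143 and 1.44 CPM in the same order. In both memory libraries the sum was mostly Gzma, which activated CD8+ T cells also make. Ncr1 was at 0 in effector memory, 12.2 CPM in central memory and 0 in naive, and Klrb1c at 1.91, 33 and 0.216 CPM. The 5 B cell markers summed to 2.81 CPM in effector memory, with 3 at 0, to 6.17 in central memory, with 2 at 0, and to 30.5 in naive, with none at 0. The 5 myeloid markers summed to 4.22, 3.99 and 4.28 CPM in the same order, with Cd14 at 3.03, 0.112 and 0.0719 CPM and Lyz2 at 0, 0.0558 and 2.52 CPM. The 4 dendritic cell markers summed to 12.5, 2.23 and 2.95 CPM, mostly Xcr1, with Flt3 and Siglech at 0 in every library. The part of these markers in the Zfp differences was not tested. In bulk libraries, fewer cells of a type and less RNA per cell cannot be told apart.

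The Zfp genes as a family took a smaller share of the effector memory library. Their counts made up 0.735% of effector memory, 1.05% of central memory and 1.15% of naive counts. Their median level was 19.1 CPM in effector memory, 27.5 in central memory and 27.1 in naive. Nearly all were detected in every library, with 247, 250 and 248 of the 258 at 5 CPM or more. The members ran from 502 to 23974 summed counts, with a median of 2310. Effector memory was the lowest of the 3 libraries for 171 members (66.3%), against 42.0% of all genes with 500 counts. It was the highest for 34 members (13.2%), against 39.6% of all such genes. Naive was the highest for 122 members (47.3%) and central memory for 102 (39.5%).

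**Figure D1:**
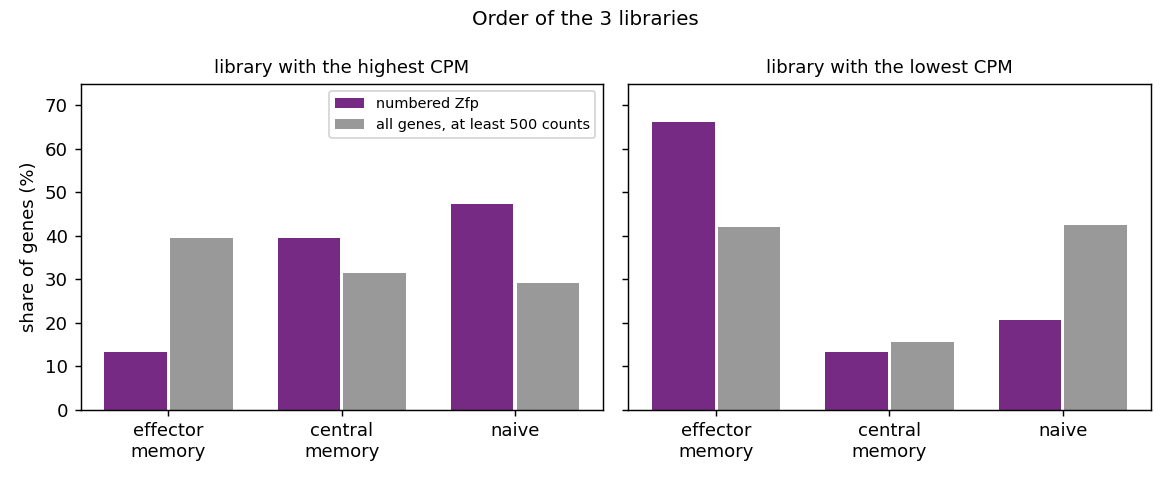
Share of numbered Zfp genes (purple, n = 258) and of all genes with at least 500 counts (grey, n = 9612) whose highest CPM (left panel) or lowest CPM (right panel) was in effector memory, central memory or naive. Effector memory was lowest for 66.3% of the Zfp genes and for 42.0% of all genes.

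In effector memory against naive, 21 members were called higher and 64 lower, or 8.14% and 24.8% of the 258, while 173 passed neither way. Among all genes with 500 counts, 20.5% were called higher and 14.7% lower in this comparison. The median log2 ratio of the members was -0.57, against 0.04 over all genes. The ratio was below 1 in 194 members (75.2%), against 48.3% of all genes, and the counting interval lay wholly below 1 in 178 members and wholly above it in 50. By 4-fold or more, 8 members were called lower and 10 higher, beside 418 and 918 of the 9612 genes. The quartiles of the log2 ratio were -0.996 and -0.005 for the members, against -0.609 and 0.806 over all genes. A few far outliers lay on both sides. A middle member, by the median ratio, had 0.675 times its naive level.

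Fewer members were called between central memory and naive. In central memory against naive, 16 members were called higher and 17 lower, or 6.20% and 6.59%, while 10.6% of all genes were called higher and 3.92% lower. The median log2 ratio was -0.05 for the members and 0.15 for all genes. Other scalings moved the share of lower among the called members here, at 51.5% with trimmed means, 62.5% with DESeq2 size factors and 63.6% with upper quartiles. In effector memory against central memory, 10 members were called higher and 54 lower, or 3.88% and 20.9%, while 12.8% of all genes were called higher and 12.4% lower. The median log2 ratio was -0.46 for the members and -0.08 for all genes. The median of all genes moved by over 0.1 with the scaling in 2 comparisons, to -0.06 in effector memory against naive and to 0.02 in central memory against naive with upper quartiles. Relative to the median of all genes, the members' median stood at -0.61 in effector memory against naive, -0.19 in central memory against naive and -0.38 in effector memory against central memory, a difference that no scaling of whole libraries can change. The comparisons share libraries, so they are not independent of each other. In all, 114 members were called in at least 1 comparison and 144 in none.

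**Figure D2:**
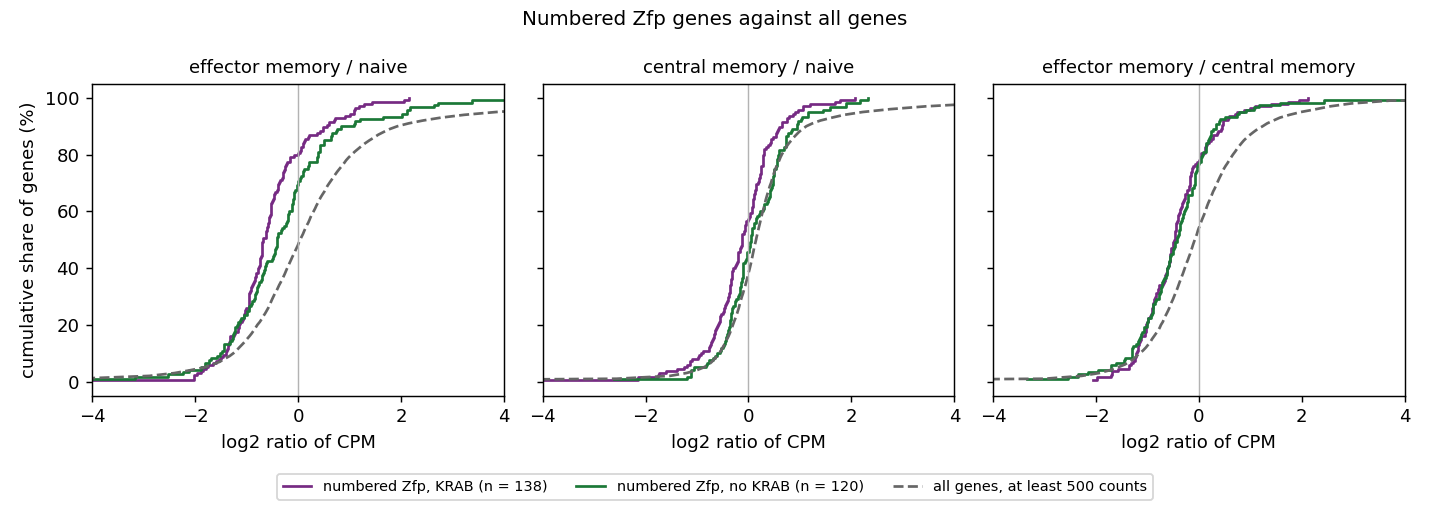
Cumulative share of genes (y axis, %) by log2 ratio of CPM (x axis) in the 3 comparisons, for numbered Zfp genes with a KRAB box (purple), without one (green) and all genes with at least 500 counts (dashed grey). The axis stops at log2 ratios of -4 and 4, so Zfp990, Zfp831 and Zfp608 lie outside it in some panels. Between log2 ratios of -1 and 1 both Zfp curves lie left of the grey curve in effector memory against naive and against central memory. In central memory against naive the medians lie nearer to each other, at -0.13 with a KRAB box, 0.05 without one and 0.15 over all genes.

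The members that were lower in effector memory were led by a transcript with few counts outside the naive library. Zfp990, a KRAB gene with 13 fingers on chromosome 4, had 4 counts in effector memory, 4 in central memory and 1224 in naive, or 0.125, 0.112 and 44.0 CPM. It was 352-fold lower in effector memory than in naive, with a counting interval of 137- to 1290-fold, and no value separated effector memory from central memory (ratio 1.12, interval 0.209 to 6.01). It was the single member with under 500 counts in both memory libraries together that reached 500 in naive alone, so it is a member through naive only. By a search of 75-base stretches, 8.25% of its transcript also occurs in other genes, most often Zfp534 and Gm8935, so some of its reads could be split. It lies at chr4:145510759-145539188 on the plus strand (GRCm38). Among its neighbours, the gene model Gm13212 had 20.8 CPM in effector memory, 19.5 in central memory and 59.5 in naive, and was called lower in both memory libraries. Zfp987, not a member with its 460 summed counts, had 2.88 CPM in effector memory, 3.57 in central memory and 8.63 in naive. It too was called lower in both memory libraries. Zfp980, Zfp986 and Zfp981 had 12, 18 and 6 summed counts, most of them in naive. Before Zfp990 on the chromosome, the neighbours with 500 summed counts ran otherwise. Vps13d had 97.6 CPM in effector memory, 296 in central memory and 333 in naive, and against naive was called lower in effector memory only. Tnfrsf1b had 99.6, 111 and 93.9 CPM in the same order and passed neither way. Tnfrsf8 had 52.8, 0.335 and 0 CPM and was called higher in effector memory. Further along the chromosome than Zfp987, Zfp992 had 11.1 CPM in effector memory, 11.4 in central memory and 7.91 in naive, and passed neither way. Shared sequence made up 87.3% of the transcript of Zfp987 and 34.3% of that of Zfp992.

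Zfp831, a gene with 2 fingers, had 6.10 CPM in effector memory, 61.7 in central memory and 128 in naive. It was 21-fold lower in effector memory than in naive (interval 18.2 to 24.4) and 10.1-fold lower than in central memory (8.74 to 11.8). It was also among the 17 members called lower in central memory than in naive, by 2.08-fold (1.97 to 2.19). Zfp318, which in mouse B cells is needed for the IgD transcript, had 8.79 CPM in effector memory, 44.8 in central memory and 79.4 in naive, a 9.04-fold lower level in effector memory than in naive (7.98 to 10.3). Zfp710 had 6.66 CPM in effector memory, 29.5 in central memory and 38.3 in naive, 5.75-fold lower in effector memory than in naive (4.96 to 6.70). All 3 genes ran in the order effector memory, central memory, naive from low to high.

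Zfp329 broke that order, with 13.04 CPM in effector memory, 76.2 in central memory and 57.0 in naive. It was 5.85-fold lower in effector memory than in central memory (5.27 to 6.50) and 4.37-fold lower than in naive (3.92 to 4.88). The KRAB genes Zfp945 and Zfp658 were each 4.04-fold lower in effector memory than in naive. Zfp945 had 10.3 CPM in effector memory, 26.2 in central memory and 41.4 in naive. Against central memory, the members next after Zfp831, Zfp329, Zfp318 and Zfp710 were Zfp874b, Zfp773, Zfp579 and Zfp369. Zfp369 encodes a KRAB protein that binds the neurotrophin receptor p75 in mice, and had 16.6 CPM in effector memory, 53.5 in central memory and 34.1 in naive. The Zfp874b value of 4.16-fold lower carries 8.99% sequence shared with Zfp874a and 19.5% exon overlap with other genes, whose reads could be mixed with its own.

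The members that were higher in effector memory were fewer. Zfp608, with 1 finger, represses the Rag genes in mouse thymocytes. It had 768 counts in effector memory, 44 in central memory and 20 in naive, or 24.01, 1.23 and 0.719 CPM. With 64 counts outside effector memory, it is a member through that library only. It was 33.4-fold higher in effector memory than in naive (interval 21.5 to 55.0) and 19.6-fold higher than in central memory (14.4 to 27.1), while the interval of central memory against naive (0.986 to 3.06) held 1. Its close relative Zfp609 had 59.4 CPM in effector memory, 62.2 in central memory and 44.0 in naive and passed neither way.

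Zfp473, whose human counterpart ZFP100 belongs to the U7 particle that trims the 3′ ends of replication-dependent histone transcripts, had 19.5 CPM in effector memory, 3.601 in central memory and 1.87 in naive. It too is a member through effector memory only, with 181 counts in the other libraries together. It was 10.5-fold higher in effector memory than in naive (7.87 to 14.2) and 5.43-fold higher than in central memory (4.48 to 6.61). Zfp395, a gene induced by low oxygen in human cells, had 226 CPM in effector memory, 75.9 in central memory and 55.7 in naive, and was 4.05-fold higher in effector memory than in naive (3.83 to 4.28). Per kilobase of exon it was the highest of all members in effector memory, at 47.7 CPM per kb. Zfp367 had 57.7 CPM in effector memory, 27.3 in central memory and 13.3 in naive, and was called higher in all 3 comparisons. Its central memory call, at 2.06-fold over naive, was lost under each of the 3 other scalings.

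Another set was high in both memory libraries. Zfp683 encodes Hobit, a transcription factor that in mice drives the program of tissue-resident memory T cells. It had 24.9 CPM in effector memory, 14.9 in central memory and 3.99 in naive, 6.25-fold higher in effector memory (5.12 to 7.69) and 3.74-fold higher in central memory (3.04 to 4.63) than in naive. Zfp821 had 13.7 CPM in effector memory, 10.5 in central memory and 2.08 in naive. Zfp41 had 25.1, 20.8 and 5.57 CPM in the same order, and Zfp219, which partners Sox9 in mouse cartilage cells, had 31.6, 32.5 and 7.26 CPM. For Zfp219 the ratio between the memory libraries had an interval that held 1, while both were over 4-fold above naive.

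**Figure D3:**
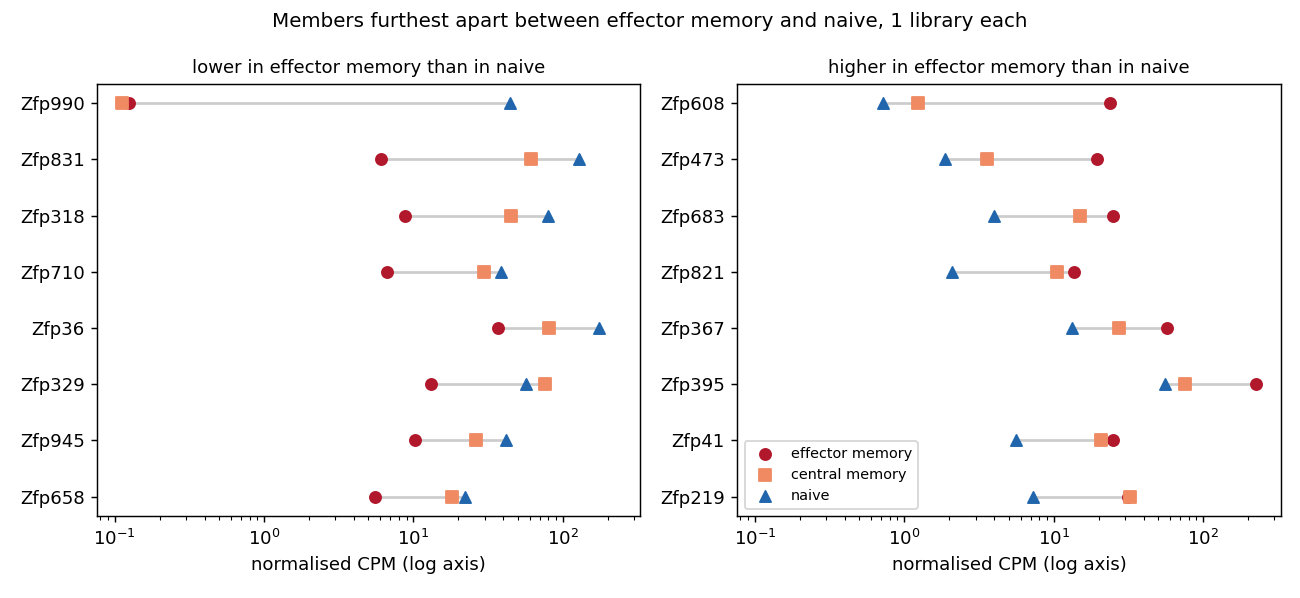
Level of the 8 members lower (left) and the 8 higher (right) in effector memory against naive by the interval bound nearest 1, in normalised CPM on a log axis, with circles for effector memory, squares for central memory and triangles for naive. In Zfp990 both memory libraries lie at about 0.1 CPM and naive at 44.0, while in Zfp608 and Zfp473 central memory lies near naive and in Zfp219 and Zfp41 near effector memory.

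A promoter is shown for Zfp473, the called-higher member next to Zfp608, because it held a match to 2 of the 5 motifs searched. The window runs from 250 bases before to 50 bases after the gene's start in RefSeq (GRCm38.p6), chr7:44748568-44748867 on the minus strand, for 1 of 3 starts listed there, with the matches in capitals.
Zfp473: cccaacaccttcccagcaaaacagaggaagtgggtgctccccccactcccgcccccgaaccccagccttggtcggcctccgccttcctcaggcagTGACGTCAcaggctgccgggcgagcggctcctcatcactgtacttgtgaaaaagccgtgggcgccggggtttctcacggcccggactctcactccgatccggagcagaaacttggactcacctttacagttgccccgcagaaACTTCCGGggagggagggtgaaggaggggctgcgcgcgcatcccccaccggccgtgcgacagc
The match at base 96 is the CRE letters, TGACGTCA, and the match at base 238 is the ETS letters on the other strand. The window of Zfp318, the first of the called-lower members with a listed promoter, held 0 matches and is not shown. Motifs were searched on both strands in the windows of the 219 members that RefSeq matched. The ETS letters, CCGGAAGT, occurred in 11% of the members' windows and in 10.2% of those of all genes with 500 counts. The CRE letters occurred in 4.11% of the members' and 3.603% of the other windows. The NRF1 letters, GCATGCGC, stood at 4.57% against 6.30%, the EGR letters, GCGGGGGCG, at 2.28% against 5.37%, and the E2F letters, GGCGGGAA, at 4.11% against 4.70%. Over all 27025 promoter windows the shares were 4.0% for ETS, 1.88% for CRE, 2.80% for NRF1, 2.92% for EGR and 2.24% for E2F. A match is a description of the letters, and these shares carry no test. The windows of the members held a median of 15 CpG pairs, with 11 in KRAB and 20 in other members, against 22 in all genes with 500 counts.

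The members were also taken by role. Of 12 listed for handling RNA or proteins, 10 reached 500 counts, and in effector memory against naive none was called higher and 1 lower, beside 20.5% and 14.7% of all genes. That gene, Zfp36, encodes tristetraprolin, a protein with CCCH fingers that binds AU-rich elements and speeds mRNA decay. It had 37.1 CPM in effector memory, 81.2 in central memory and 175 in naive, 4.72-fold lower in effector memory than in naive (4.43 to 5.04), and it was called lower in all 3 comparisons. Its relatives, which carry a letter and number after the 36 and so are not members, were also lower. Zfp36l1 had 45.9 CPM in effector memory, 199 in central memory and 268 in naive, and Zfp36l2 had 232, 396 and 631 CPM, both called lower in effector memory against naive.

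The other RNA and protein handling genes passed neither way in effector memory against naive. Zfp106, an RNA-binding protein needed for motor neurons in mice, had 242 CPM in effector memory, 249 in central memory and 241 in naive, with a ratio of 1.002 between effector memory and naive (0.970 to 1.04). Its exons overlap other genes over 26.1% of their length. Zfp207, the human counterpart of which binds the checkpoint protein Bub3 at kinetochores, had 247 CPM in effector memory, 312 in central memory and 175 in naive, and passed neither way. It was the highest member per kilobase in central memory, at 46.9 CPM per kb, while Zfp36 was the highest in naive at 50.5. Zfp622, a factor of 60S ribosome maturation, had 80.1, 84.3 and 86.0 CPM in effector memory, central memory and naive. Zfp598, a ubiquitin ligase that marks collided ribosomes, had 79.1, 111 and 99.98 CPM in that order. Zfp638, which in human cells silences unintegrated retroviral DNA, was 1.89-fold lower in effector memory than in naive, at 103 CPM in effector memory, 128 in central memory and 195 in naive. It passed the 2-fold rule with total counts or upper quartiles in place of trimmed means.

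Of 28 listed genes for chromatin and transcription, 25 reached 500 counts. In effector memory against naive 5 were higher (Zfp219, Zfp367, Zfp395, Zfp608 and Zfp703) and 4 lower (Zfp281, Zfp318, Zfp592 and Zfp827), shares near the 20.5% and 14.7% of all genes. In central memory against naive 3 were higher (12%) and none lower, beside 10.6% and 3.92% of all genes. Of these 3, Zfp367 and Zfp703 lay just over the 2-fold rule, at 2.06-fold and 2.02-fold. In effector memory against central memory 3 were higher (12%) and 4 lower (16%), beside 12.8% and 12.4% of all genes. Zfp281, a factor of embryonic stem cell pluripotency, had 29.1 CPM in effector memory, 78.7 in central memory and 101.1 in naive, 3.48-fold lower in effector memory than in naive (3.23 to 3.75). Zfp592, which forms a chromatin complex with Zmynd8 and Zfp687, had 75.9 CPM in effector memory, 168 in central memory and 189 in naive. Its partner Zfp687 had 43.2 CPM in effector memory, 81.5 in central memory and 49.2 in naive and passed neither way. Zfp827, which in human cells brings the NuRD complex to telomeres, had 18.3 CPM in effector memory, 50.1 in central memory and 49.5 in naive. Zfp703 had 21.1, 18.5 and 9.16 CPM in that order.

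Several members known for lymphocyte or promoter functions passed neither way. Zfp335, needed in mice for naive T cells to accumulate after leaving the thymus, had 50.9 CPM in effector memory, 76.1 in central memory and 82.4 in naive. Zfp91, a ubiquitin ligase of the kinase NIK, had 172, 156 and 226 CPM in the same order. Zfp143, an activator that binds promoters, had 41.0, 35.6 and 44.3 CPM. Zfp148, which binds GC boxes, had 93.5, 116 and 147 CPM, and Zfp292 had 184, 145 and 255 CPM. Zfp644, a partner of the H3K9 methyltransferases G9a and GLP, had 28.5, 48.6 and 48.2 CPM. Zfp410, known for driving the Chd4 gene in erythroid cells, had 41.1, 39.7 and 47.8 CPM, and Chd4 itself had 839, 827 and 934 CPM.

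A KRAB box was found in the longest open reading frame of 138 members, with a median of 12 fingers, and not in the other 120, with a median of 7. Effector memory against naive had 36 KRAB members lower (26.1%) and 9 higher (6.52%), with a median log2 ratio of -0.68. Among the 120 others 28 were lower (23.3%) and 12 higher (10%), with a median of -0.41. Of all genes, 14.7% were lower and 20.5% higher in this comparison. In central memory against naive the medians were -0.13 for KRAB members and 0.05 for the others, and in effector memory against central memory they were -0.48 and -0.42. The 47 members with 1 to 5 fingers had a median log2 ratio of -0.12 in effector memory against naive. Of these, 7 were higher (14.9%) and 9 lower (19.1%). The medians were -0.60 with 6 to 10 fingers, -0.70 with 11 to 15 and -0.61 with 16 or more. These medians are descriptions of the groups and were not tested against each other.

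The depth of a member also went with its difference. In the 86 members with the fewest summed counts, 17 were lower and 14 higher in effector memory against naive (median log2 -0.29). In the 86 with the most, 27 were lower and 1, Zfp395, was higher (median -0.70). All genes in the same ranges of counts had medians of 0.27 at the low end and -0.03 at the high end. At the low end 17.3% of all genes were lower and 31.5% higher, beside 19.8% and 16.3% of the members. At the high end 14% of all genes were lower and 16.3% higher, beside 31.4% and 1.16% of the members. The members' share called lower thus lay near that of all genes at the low end and above it at the high end. Sequence shared with other genes and overlapping exons could mix reads among neighbours, so the counts were repeated in the 182 members with under 5% of each. There, 48 were lower and 17 higher, with a median of -0.59.

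KRAB members with a known target were few in these libraries. Of 7 listed, 4 reached 500 counts. None was higher and 1 lower in effector memory against naive, beside 20.5% and 14.7% of all genes. Zfp809, which silences murine leukaemia proviruses, had 24.95 CPM in effector memory, 51.3 in central memory and 32.5 in naive. It was called lower in effector memory than in central memory, by 2.06-fold (1.89 to 2.24), a call lost with DESeq2 size factors. Zfp932, which represses endogenous retroviruses in mouse embryonic stem cells, had 10.4 CPM in effector memory, 33.4 in central memory and 31.6 in naive, 3.03-fold lower in effector memory than in naive (2.67 to 3.45). Its transcript shares 32.6% of its sequence with other genes, most often Gm15446 and 4930522L14Rik, so its reads are uncertain. Zfp445, a guardian of imprinted methylation, had 159 CPM in effector memory, 234 in central memory and 257 in naive, and Zfp568, which restrains placental Igf2, had 20.3, 28.1 and 26.6 CPM. Neither passed.

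KRAB proteins act through a corepressor machinery. Of 20 listed genes of it, 18 reached 500 counts, and in effector memory against naive 4 were higher (Cbx3, Cbx5, Dnmt1 and Uhrf1) and 4 lower (Atf7ip, Fam208a, Morc3 and Sumo2), with a median log2 ratio of -0.08. Over all genes 20.5% were higher and 14.7% lower, so these shares lie near the background. Trim28 had 348 CPM in effector memory, 272 in central memory and 250 in naive, and Setdb1 had 97.6, 86.5 and 97.7 CPM, neither passing. Uhrf1, which guides maintenance DNA methylation at replication and is abundant in cycling cells, had 436 CPM in effector memory, 83.5 in central memory and 7.69 in naive. Fam208a, the HUSH subunit now named Tasor, had 43.5 CPM in effector memory, 81.7 in central memory and 176 in naive. Atf7ip, which stabilises Setdb1, had 94.0, 183 and 328 CPM in that order.

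Some members had central memory at an end of the order. Zfp760 had 9.63 CPM in effector memory, 24.6 in central memory and 5.86 in naive, and Zfp839 had 12.5, 25.2 and 9.27 CPM. These 2 were the members called higher in central memory than in both other libraries. Zfp839 lost its call against effector memory, at 2.02-fold, with DESeq2 size factors and with upper quartiles. Zfp282, which in human cells binds the HTLV-1 promoter, had 27.3 CPM in effector memory, 41.1 in central memory and 12.8 in naive, 3.22-fold higher in central memory than in naive (2.86 to 3.62). Its 2.14-fold value in effector memory against naive passed with trimmed means but not with total counts or upper quartiles. Zfp69 and Zfp3 were also among the members higher in central memory, by 3.45-fold and 2.98-fold over naive.

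On the other side, Zfp995 had 7.07 CPM in effector memory, 2.68 in central memory and 11.8 in naive, and Zfp808 had 27.4, 8.21 and 18.7 CPM. These were the members called lower in central memory than in both other libraries. The Zfp808 transcript shares 26.6% of its sequence with other genes, most often Zfp934 and Gm3325. Zfp365 had 5.003 CPM in effector memory, 2.65 in central memory and 16.2 in naive, and was 6.13-fold lower in central memory than in naive (4.90 to 7.73). Zfp354c had 9.57 CPM in effector memory, 9.60 in central memory and 32.1 in naive, so both memory libraries stood at the same level under naive. Zfp607b had 13.9 CPM in effector memory, 3.21 in central memory and 3.13 in naive, and stood out in effector memory alone by 4.33-fold over central memory (3.52 to 5.37).

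Members lay on 20 chromosomes, with 63 on chromosome 7, 34 on chromosome 17 and 25 on chromosome 13. Joining members within 200 kb of each other gave 17 clusters of at least 3, which held 108 members. These clustered members had a median log2 ratio of -0.69 in effector memory against naive, and the 150 others had -0.47. The largest cluster, 16 genes at chr13:67038596-67827002, had a ratio below 1 in effector memory against naive in 15 of the 16. Of these genes 4 were called lower, a share near that of the family, and none higher. A cluster of 7 at chr7:127233061-127615797 ran differently against naive. There 2 members were called higher and none lower in effector memory against naive, beside 20.5% and 14.7% of all genes. In central memory against naive all 7 had a ratio above 1, with a median log2 ratio of 0.78. Of all genes, 38.2% had a ratio below 1 in that comparison. In effector memory against central memory 3 of the cluster were lower and 1 higher, with a median of -0.28, the same sign as the family.

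The cluster at chr17:21383748-22456689 held 15 members, all with a KRAB box. It held 7 of the 17 members called lower in central memory against naive, with a median log2 ratio of -0.93, and 1 of the 16 called higher. Of all genes, 3.92% were lower and 10.6% higher in that comparison. Between effector memory and naive 6 of the 15 were lower and 2 higher, beside 14.7% and 20.5% of all genes. Between effector memory and central memory 2 were lower and 3 higher, beside 12.4% and 12.8% of all genes. The median there was 0.28, opposite in sign to the family. Zfp53 had 1213 counts in effector memory, 1066 in central memory and 2803 in naive, or 37.9, 29.8 and 100.7 CPM, and was 3.39-fold lower in central memory than in naive (3.15 to 3.64). Zfp51 had 26.7, 24.6 and 59.0 CPM in the same order and Zfp946 had 5.78, 4.89 and 14.8 CPM. Within the same array the opposite pattern occurred. Zfp948 had 21.5 CPM in effector memory, 5.58 in central memory and 5.14 in naive, 4.19-fold higher in effector memory than in naive (3.49 to 5.05), and passed the floor of 500 counts through effector memory only, with 343 counts elsewhere. Its neighbour Zfp52 had 51.2, 27.8 and 22.6 CPM. Another 3 numbered Zfp rows there lay under 500 summed counts. Zfp820 had 138 counts in effector memory, 18 in central memory and 16 in naive, Zfp947 had 101, 14 and 23, and Zfp229 had 14, 2 and 14. From Zfp995 to Zfp946, at one end of the array, all 7 members had ratios below 1 in both memory libraries against naive. Zfp947 lies within this stretch but under the floor, with ratios to naive of 3.82 in effector memory and 0.473 in central memory. Zfp995 and Zfp946 reached the floor through naive only.

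**Figure D4:**
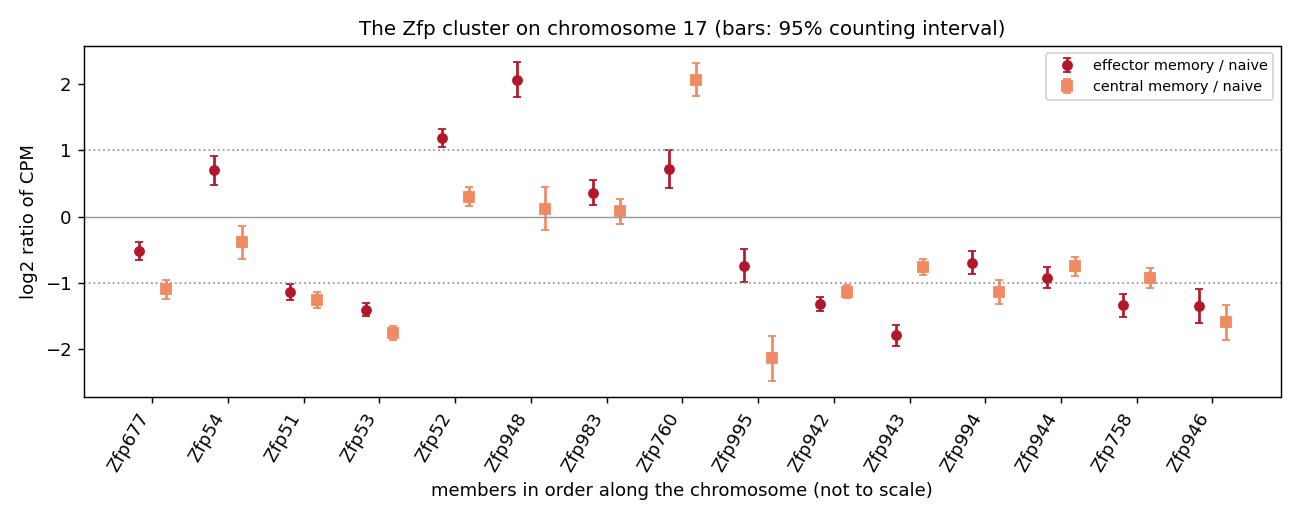
Log2 ratio of CPM against naive for the 15 members of the chromosome 17 cluster, in their order along the chromosome (not to scale), for effector memory (circles) and central memory (squares), with 95% counting intervals as bars and 2-fold marked by dotted lines. The members from Zfp995 on lie below 0 in both, while Zfp52 and Zfp948 are above 2-fold in effector memory and Zfp760 in central memory. Zfp947, under 500 counts and above naive in effector memory, lies among the members from Zfp995 on and is not drawn.

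In this array 4 members had promoter windows that were near-identical in pairs. Zfp942 and Zfp943 start close together on opposite strands, so that their windows overlap by 194 bases, and Zfp944 and Zfp758 are laid out in the same way with an overlap of 162 bases. The windows of Zfp943 (chr17:21962309-21962608, plus strand) and Zfp758 (chr17:22361213-22361512, plus strand), from RefSeq on GRCm38.p6, are shown to compare the copies. Capitals mark the bases left unmatched when the windows are aligned, 8 in each of 300.
Zfp943: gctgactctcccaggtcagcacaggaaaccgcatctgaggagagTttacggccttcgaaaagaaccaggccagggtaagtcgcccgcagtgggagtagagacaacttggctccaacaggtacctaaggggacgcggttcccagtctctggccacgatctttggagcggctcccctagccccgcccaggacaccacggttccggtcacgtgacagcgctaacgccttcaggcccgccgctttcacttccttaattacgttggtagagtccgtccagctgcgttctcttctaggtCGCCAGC
Zfp758: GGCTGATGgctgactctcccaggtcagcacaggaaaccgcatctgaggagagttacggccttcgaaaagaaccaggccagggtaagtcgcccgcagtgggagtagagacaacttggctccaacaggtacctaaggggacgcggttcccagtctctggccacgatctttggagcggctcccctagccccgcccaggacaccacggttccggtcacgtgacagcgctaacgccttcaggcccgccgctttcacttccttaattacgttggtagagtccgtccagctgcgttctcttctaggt
The capitals at the ends come from the offset of the windows, and an extra T in Zfp943 is the only difference between the stretches they share. The pair matched over 97.3% of the window, and Zfp942 with Zfp944 over 91.3%, where over the 91 pairs of promoters in the cluster the median was 53.7% and the next highest pair 67.3%.

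All 4 of these genes were lower in memory than in naive. Zfp943 had 14.1 CPM in effector memory, 28.9 in central memory and 49.1 in naive, and Zfp758 had 12.7, 16.9 and 32.2 CPM. Zfp942 had 30.99 CPM in effector memory, 35.3 in central memory and 77.5 in naive, and Zfp944 had 16.8, 18.9 and 31.8 CPM. In effector memory against naive, Zfp943 was 3.47-fold lower (3.12 to 3.87), Zfp758 2.53-fold (2.25 to 2.85), Zfp942 2.50-fold (2.32 to 2.70) and Zfp944 1.89-fold (1.70 to 2.11), the last under the 2-fold rule. The intervals of Zfp943 and Zfp758, with near-identical windows, do not overlap. The members share 0.936% to 4.80% of their transcript sequence with other genes.

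The threshold of 500 counts cut through a continuous range. In all, 38 members would have been under it without the library where they were highest, among them Zfp365, Zfp383, Zfp607b, Zfp69, Zfp760, Zfp821, Zfp946, Zfp995 and Zfp11. Just inside lay Zfp383 with 502 summed counts, Zfp128 with 523 and Zfp11 with 525. Just outside lay Zfp455 with 493, Zfp109 with 491 and Zfp772 with 489. Zfp383 had 2.78 CPM in effector memory, 3.80 in central memory and 9.95 in naive, and Zfp11 had 6.35, 6.67 and 2.98 CPM. Zfp772 had 6.50 CPM in effector memory, 3.13 in central memory and 6.07 in naive. Zfp11 was called higher in effector memory than in naive by 2.13-fold, a call lost with total counts and with upper quartiles.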

How the data were processed

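Gene-level read counts were deposited by the authors as 1 table with a column for each library. Per the submitters' processing notes, CASAVA, HISAT2 2.0.5 and featureCounts 1.5.0-p3 were used with the mm10 build. Libraries were made from total RNA with a TruSeq RNA kit, per the labels' protocols. No source used here states the annotation, the strandedness or how reads with several matches were handled. The columns TN, TCM and TEM were read as naive, central memory and effector memory from their abbreviations.

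Counts were scaled with trimmed mean of M values in edgeR 4.0.16 (R 4.3.3), with factors of 0.967 for effector memory, 0.999 for central memory and 1.04 for naive. Ratios have 95% Clopper-Pearson counting intervals. A count of 0 was replaced with 3, which is 0.0938, 0.0837 and 0.108 CPM in effector memory, central memory and naive. Scripts were tested on simulated data. Positions, fingers, KRAB boxes (at least 11 of 16 A-box positions) and shared 75-base stretches came from GENCODE M21. All 258 members matched it.

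Named were the 8 higher and 8 lower members of each comparison by interval bound nearest 1, members called alike in central memory against both others, those nearest the threshold, and members of role lists. Others, among them the cluster members, Zfp410 and Zfp609, were named after their values were seen. The members, lists and rules were chosen with earlier results of these data known. Other scalings (total counts, DESeq2 1.42.0 size factors, upper quartiles), floors, levels and ratios were tried. Dropping members with shared or overlapping sequence was added after seeing the data.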

Additional observations from a re-analysis of the deposited data

How the results depend on the processing

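Replacing trimmed means by total counts, DESeq2 size factors or upper quartiles left each count of called members within 1.5 times its value, and so did a floor of 100 counts, no floor above 0, a level of 1 CPM and dropping members with shared or overlapping sequence. With a floor of 1000 counts, 5 members were higher in effector memory against central memory. With a level of 20 CPM, 11 members were higher in effector memory against naive, 7 higher and 11 lower in central memory against naive, and 5 higher in effector memory against central memory. With a ratio of 1.5, 128 were lower in effector memory against naive, 37 higher and 39 lower in central memory against naive, and 17 higher and 106 lower in effector memory against central memory. With a ratio of 4, 10 were higher and 8 lower in effector memory against naive, 3 and 3 in central memory against naive, and 3 and 5 in effector memory against central memory. The floor of 1000 counts left 215 members, while the levels and ratios change the calling rule itself. Of 504 values of 56 named genes under other scalings, 489 kept their side of the rule, 10 lost a call and 5 gained 1. No called direction turned round, but 28 values of 15 ratios that were not called changed sign, all within 0.123 of 0 on the log2 scale, among them Zfp106 and Zfp772 in effector memory against naive. No paired analysis was possible because each group has 1 library, which also leaves no replicate to omit. At the lowest levels, such as the 4 counts of Zfp990 in each memory library, counting error limits the fold.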

Other observations

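The numbered Zfp rows under 500 summed counts numbered 133, of which 25 had no count in any library and 108 had at least 1. Of those 108, 2 were called higher and 7 lower in effector memory against naive, or 1.85% and 6.48%. Over all genes with 500 counts the shares were 20.5% and 14.7%. Only 22 of the 108 reached 5 CPM, the level a call needs, in some library. The median log2 ratio of the rows under 500 counts was -0.57, the same as that of the members to 2 decimals, with wide counting error.

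Other zinc finger families, taken by symbol with the same floor of 500 counts, were set beside the Zfp genes. Zbtb genes pair fingers with a BTB domain that lets the proteins dimerise and bind corepressors, and include regulators of T cell fate. Of 33, 4 were higher (12.1%) and 9 lower (27.3%) in effector memory against naive, with a median log2 ratio of -0.47. Over all genes with 500 counts 20.5% were higher and 14.7% lower there. In central memory against naive 3 Zbtb genes were higher (9.09%) and none lower, beside 10.6% and 3.92% of all genes. Zbtb7b, the factor of the CD4 lineage choice in the thymus, had 93.6 CPM in effector memory, 37.4 in central memory and 1.33 in naive. Zscan and Zkscan genes, whose proteins carry a SCAN dimerisation domain, numbered 17. In effector memory against naive none of them was higher and 6 were lower (35.3%), with a median of -0.84. Zc3h genes, whose CCCH fingers mostly bind RNA, numbered 14, with none higher, 2 lower (14.3%) and a median of -0.13. The Zc3h share called lower lies near that of all genes. No family was tested against another.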
